A study of Mus musculus with 5 samples.

Results

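The genes described here are 9 neurexins, neuroligins and vesicle release genes, chosen by name: Nrxn2, Nrxn3, Nlgn1, Nlgn2, Nlgn3, Syt1, Snap25, Syn1 and Syn2. Each symbol matched 1 gene row in every library, so 9 of the 32285 genes counted were followed. The libraries were made from nuclei of mouse hippocampus, with RNA and accessible chromatin read from the same nuclei. 1 library came from the wild type and 1 from 5xFAD mice, a transgenic line that overproduces amyloid. The other 3 came from 5xFAD mice with an astrocyte-specific, a neuron-specific or a global MAGL-KO, a knockout of the monoacylglycerol lipase gene Mgll, so all 4 libraries other than the wild type carry the 5xFAD transgenes. Neither the age, sex or strain of the mice nor the driver of the 2 cell-type-specific knockouts is given in the sources used here, and the number of animals behind each library is also not given. With 1 library per group there is no replicate, and no test between groups was made.

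Neurexins sit in the presynaptic membrane, where their outer domains bind partners across the synaptic cleft. Each neurexin gene makes long alpha and short beta forms from separate promoters. Neuroligins are their postsynaptic partners: Nlgn1 is known mainly from excitatory synapses, Nlgn2 from inhibitory synapses, and Nlgn3 from both. Inside the terminal, the vesicle protein Syt1 senses calcium and triggers fusion, Snap25 is a plasma membrane SNARE of the fusion complex, and the synapsins Syn1 and Syn2 tether vesicles in the reserve pool. Several of these adhesion genes are also known to be transcribed in astrocytes and oligodendrocyte precursors.

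The 5 libraries held 4050 to 7498 nuclei and 101931020 to 159532813 gene UMIs (unique molecular identifiers, 1 per captured RNA molecule), with a median of 14068.5 to 17353.5 UMIs per nucleus. After filters, 3917 to 7031 nuclei per library were used. Nuclei were clustered without the 9 genes, and clusters were named from marker genes, so a class called CA1 pyramidal or astrocyte below stands for CA1-like or astrocyte-like clusters. Excitatory neurons made up 2448 to 4875 nuclei per library, against 29 to 71 for astrocytes, 43 to 121 for microglia, 82 to 116 for oligodendrocyte precursors and 217 to 312 for oligodendrocytes. Nuclei with Xist UMIs made up 59.3%, 42.2%, 60%, 83.1% and 59.9% of the nuclei of known sex in the wild-type, 5xFAD, astrocyte MAGL-KO, neuron MAGL-KO and global MAGL-KO libraries. Clusters with Xist and Y-linked UMIs together in more than 25% of nuclei were left unnamed and held 10.5% to 16.5% of the nuclei used. This limit was set after the data were seen, and a cluster led by Sst and Nxph1 with 4.09% to 5.44% of nuclei fell under it. The nearest class of that cluster was Lhx6-lineage inhibitory, so its 1313 nuclei are missing from that class and from all inhibitory neurons below. The limit also left out n8 (1044 nuclei, nearest to CA3 pyramidal), n12 (796) and n27 (374), the last 2 nearest to CA1 pyramidal. The CA3 class below is therefore the single cluster n10 with 911 nuclei, and the CA1 and excitatory classes also lack such nuclei. The Vip-led cluster n14 (23.9%) and the deep-layer cluster n25 (24.41%) lay just below the limit and were kept. Among the 27696 distinct barcodes, 442 occurred in more than 1 library.

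The knocked-out gene was read first. Mgll stood at 73.2, 74.0, 93.5, 97.2 and 83.1 CPM (UMIs of the gene per 1000000 UMIs of the class) in excitatory neurons of the wild-type, 5xFAD, astrocyte, neuron and global MAGL-KO libraries. In astrocytes it stood at 492, 346, 483, 401 and 430 CPM. Mgll UMIs were therefore not lost in any library labelled as a knockout, and since the sources used here do not give the deleted part of the gene, UMIs from outside it would check nothing. The 3 libraries are called the libraries labelled MAGL-KO throughout, and every direction against 5xFAD below rests on those labels.

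The members differ widely in size, which bears on RNA counted in nuclei. On GRCm38, Nrxn3 (ENSMUSG00000066392) spans 1612.1 kb of chromosome 12, from 88722876 to 90334935 on the plus strand, Nlgn1 (ENSMUSG00000063887) 906.2 kb of chromosome 3 and Syt1 (ENSMUSG00000035864) 513.3 kb of chromosome 10. Syn2 (ENSMUSG00000009394) spans 147.1 kb, Nrxn2 (ENSMUSG00000033768) 125.4 kb, Snap25 (ENSMUSG00000027273) 69.0 kb and Syn1 (ENSMUSG00000037217) 60.5 kb. The shortest were Nlgn3 (ENSMUSG00000031302) at 26.8 kb and Nlgn2 (ENSMUSG00000051790) at 14.7 kb. Syn1 and Nlgn3 lie on the X chromosome. Levels are therefore compared below between classes and libraries for 1 gene at a time, never between genes.

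Promoters of members named in the accessibility results below are shown next. RefSeq promoter windows on GRCm38.p6 were found for 6 of the 9 members, all but Nrxn2, Nlgn3 and Snap25, with 11 entries in all, each running from 250 bases before to 50 bases after a start site. The 2 Nrxn3 windows belong to the 2 start sites that lay under a peak, and Syt1, Syn1 and Syn2 are shown because their accessibility in glia differed from one another. The start site of the Nlgn1 window lies 679 bp from the single Nlgn1 start under a peak, so the window does not hold that start. Capitals mark 6 motifs searched on both strands: TTCAGCACC (the left part of the RE1 element bound by the repressor REST), TGACGTCA (the palindromic cAMP response element), GCATGCGC (the core of the NRF-1 element), GGGCGG (the GC box), CCAAT and TATAAA. No 2 matches overlapped in the windows shown.
Syt1, chr10:109010926-109011225, minus strand: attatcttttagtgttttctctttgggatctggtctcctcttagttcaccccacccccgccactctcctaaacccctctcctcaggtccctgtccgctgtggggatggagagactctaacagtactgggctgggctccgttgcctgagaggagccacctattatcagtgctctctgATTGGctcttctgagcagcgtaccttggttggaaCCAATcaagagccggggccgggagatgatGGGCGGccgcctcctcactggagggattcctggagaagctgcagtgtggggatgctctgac
Syn1, chrX:20920869-20921168, minus strand: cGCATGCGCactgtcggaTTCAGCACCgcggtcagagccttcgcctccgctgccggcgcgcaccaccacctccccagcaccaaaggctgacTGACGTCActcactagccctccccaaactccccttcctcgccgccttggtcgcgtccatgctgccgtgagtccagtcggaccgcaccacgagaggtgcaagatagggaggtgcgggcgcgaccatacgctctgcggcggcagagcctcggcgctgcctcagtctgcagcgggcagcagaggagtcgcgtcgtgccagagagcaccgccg
Syn2, chr6:115134652-115134951, plus strand: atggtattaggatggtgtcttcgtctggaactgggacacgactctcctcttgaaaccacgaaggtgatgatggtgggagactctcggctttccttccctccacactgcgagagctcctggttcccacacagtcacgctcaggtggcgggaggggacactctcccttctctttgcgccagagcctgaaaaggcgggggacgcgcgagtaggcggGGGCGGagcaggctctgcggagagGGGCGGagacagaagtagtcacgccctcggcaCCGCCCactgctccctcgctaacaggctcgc
Nrxn3 upstream window, chr12:88953140-88953439, plus strand: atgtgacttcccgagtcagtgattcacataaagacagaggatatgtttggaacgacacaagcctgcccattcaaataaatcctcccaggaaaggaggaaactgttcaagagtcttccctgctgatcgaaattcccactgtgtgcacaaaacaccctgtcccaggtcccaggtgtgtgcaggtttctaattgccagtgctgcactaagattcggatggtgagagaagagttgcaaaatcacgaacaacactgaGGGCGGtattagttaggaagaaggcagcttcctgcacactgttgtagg
Nrxn3 downstream window, chr12:89812233-89812532, plus strand: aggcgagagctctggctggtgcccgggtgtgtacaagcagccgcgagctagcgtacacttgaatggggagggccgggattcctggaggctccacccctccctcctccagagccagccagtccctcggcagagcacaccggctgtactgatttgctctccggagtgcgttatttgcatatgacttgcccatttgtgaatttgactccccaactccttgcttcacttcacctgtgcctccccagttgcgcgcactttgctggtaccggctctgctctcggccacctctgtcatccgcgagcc
Nlgn1, chr3:26153937-26154236, minus strand: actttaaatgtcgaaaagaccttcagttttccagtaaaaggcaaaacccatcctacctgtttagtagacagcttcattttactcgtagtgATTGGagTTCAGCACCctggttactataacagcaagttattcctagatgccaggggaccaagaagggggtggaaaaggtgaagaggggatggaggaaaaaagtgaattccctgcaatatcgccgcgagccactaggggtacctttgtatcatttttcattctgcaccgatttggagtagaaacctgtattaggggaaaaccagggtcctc
Nlgn2, chr11:69837735-69838034, minus strand: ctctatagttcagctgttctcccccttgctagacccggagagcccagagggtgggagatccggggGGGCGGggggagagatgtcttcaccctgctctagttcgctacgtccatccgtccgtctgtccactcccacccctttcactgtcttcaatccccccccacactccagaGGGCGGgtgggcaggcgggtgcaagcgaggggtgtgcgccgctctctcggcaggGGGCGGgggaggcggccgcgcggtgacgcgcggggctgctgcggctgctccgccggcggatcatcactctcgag

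The Syn1 window held TTCAGCACC, TGACGTCA and GCATGCGC once each and no other motif of the 6. TTCAGCACC occurred in 0.371% of the 32851 promoter windows of the table, TGACGTCA in 1.79% and GCATGCGC in 2.71%. The Nlgn1 window also held TTCAGCACC, with 1 CCAAT. Syn2 and Nlgn2 each held GGGCGG 3 times, a motif found in 35.7% of windows. Syt1 held 1 GGGCGG and 2 CCAAT, which 37.4% of windows hold. The upstream Nrxn3 window held 1 GGGCGG, and the downstream one held none of the 6 motifs. TATAAA, present in 13.6% of all windows, was in none of those shown. The share of G and C was 68.7% for Nlgn2, 68.3% for Syn1, 62.3% for Syn2 and 56.7% for Syt1. The Nrxn3 windows differed, with 47.7% upstream and 60.7% downstream, and the Nlgn1 window had 44.7%. These matches describe letters in a window and not bound sites.

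The neurexins had unlike patterns over the cell classes. Nrxn3 was highest in Adarb2-lineage inhibitory neurons, at a median of 10600 CPM over the 5 libraries (lowest 10100, highest 11500), apart from every other class. CA3 pyramidal neurons (8920, from 7170 to 9420) and Lhx6-lineage inhibitory neurons (8750, from 8170 to 9320) followed and overlapped each other. Subicular neurons stood at 6540, upper-layer cortical-type neurons at 5560, CA1 pyramidal neurons at 5470 and deep-layer neurons at 3860 CPM. Dentate granule neurons were the lowest neuron class for Nrxn3 at 2530 CPM, with a wide range of 1280 to 3570 over the libraries, and lay below oligodendrocyte precursors (3690, from 3600 to 3820). Without cluster n4, which is described below and lay mostly in the libraries labelled MAGL-KO, the class read 1240 to 1580 CPM, with a median of 1490. Within the Adarb2 class, a Vip-expressing cluster (n14) held 12600 to 14500 CPM of Nrxn3 and the other cluster (n19) held 3380 to 4410 CPM. The top rank of the class thus rested on n14.

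Nrxn2 was highest outside the neurons. Oligodendrocyte precursors had 463 CPM (402 to 483) and astrocytes 194 CPM (190 to 246), both apart from their neighbours in the order. From Adarb2-lineage inhibitory neurons (116) through upper-layer (114), subicular (111), Lhx6-lineage (97.0), deep-layer (94.5), oligodendrocyte (72), CA1 (71.7), dentate granule (66.5) and CA3 (65.9) classes, neighbours in the order overlapped. Microglia stood apart at the bottom, at 15.9 CPM (9.68 to 23.1).

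**Figure D1:**
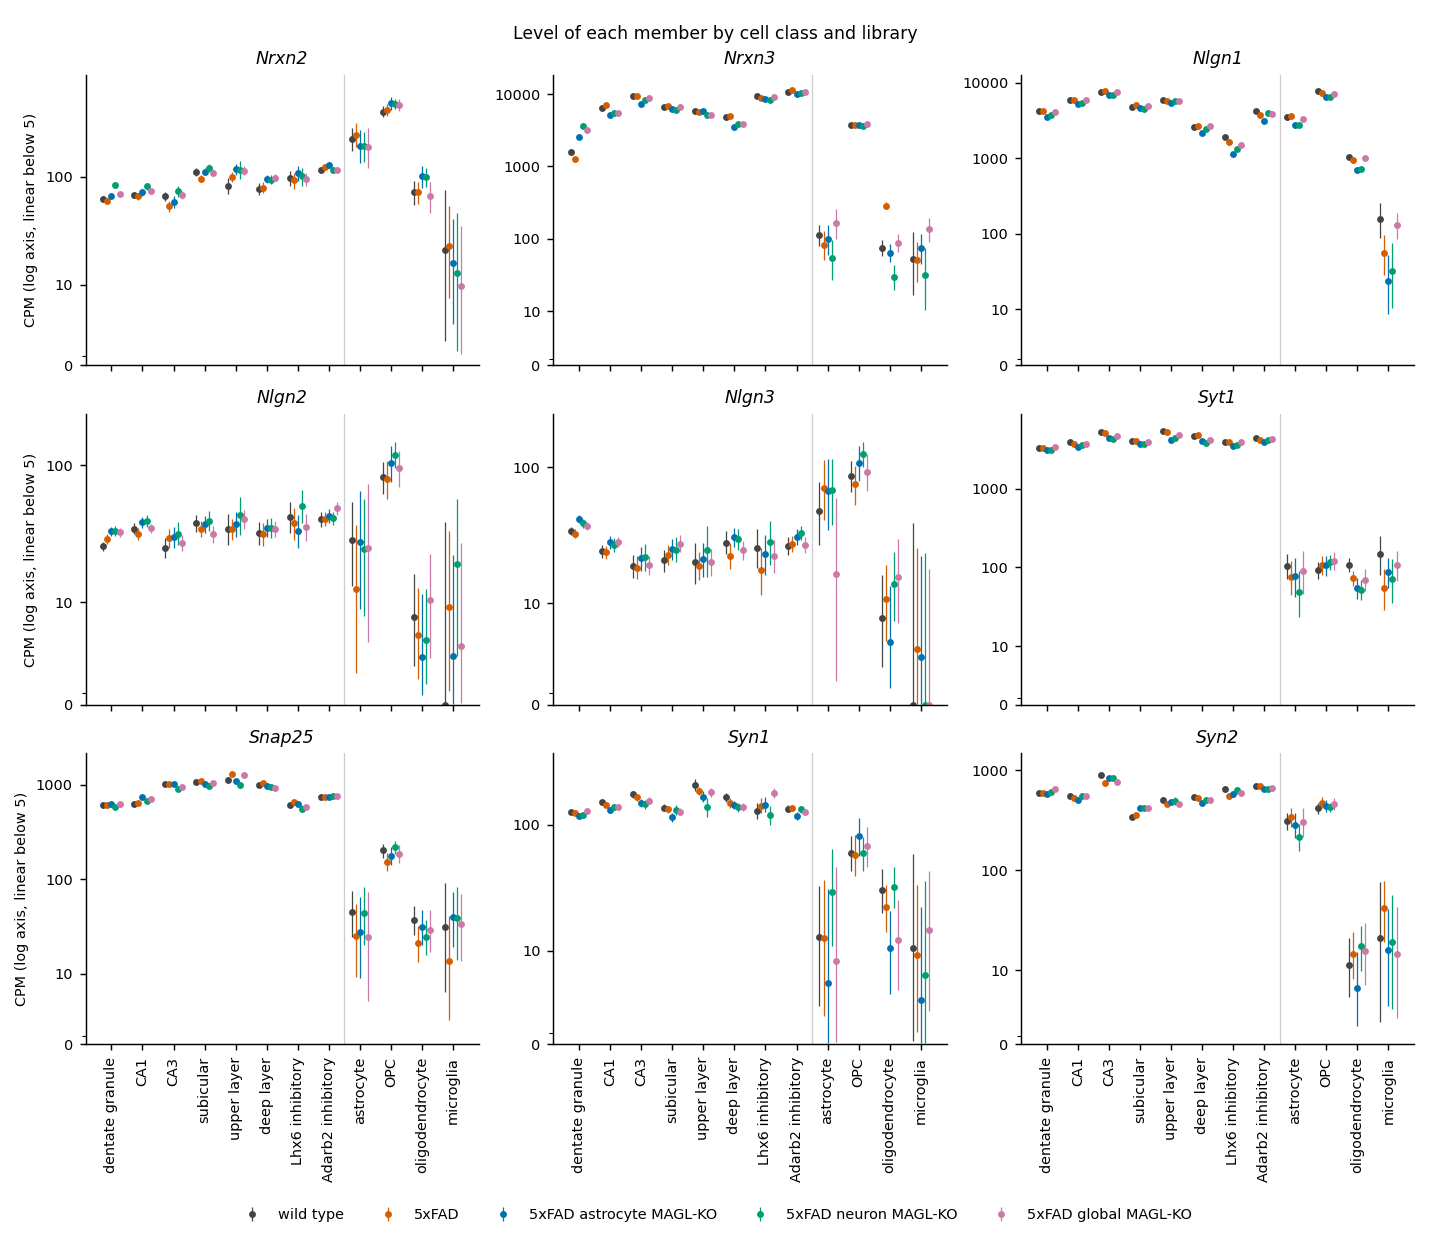
Level of each gene in 12 cell classes, in CPM on a log axis that is linear below 5. Points are the 5 libraries by group and bars are exact 95% Poisson intervals, with OPC for oligodendrocyte precursors. Syt1 falls from between 3080 and 5400 CPM in the neuron classes to at most 147 CPM in glia, while Nrxn2, Nlgn2 and Nlgn3 have their highest medians in oligodendrocyte precursors.

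Neuroligins were not limited to neurons either. Nlgn1 was highest in CA3 pyramidal neurons (7620 CPM, 6960 to 7890), which overlapped oligodendrocyte precursors (7120, 6540 to 7870). CA1 (5930) and upper-layer (5730) neurons came next, then subicular (4850), dentate granule (4080) and Adarb2-lineage (3880) neurons and astrocytes (3330, 2740 to 3650). Lhx6-lineage inhibitory neurons, without the unnamed cluster led by Sst and Nxph1, were the lowest neuron class for Nlgn1, at 1490 CPM (1130 to 1950). The excitatory class was 3.44-fold above them in medians, with ranges apart, as they were for 36.7% of the genes compared between these 2 classes. Oligodendrocytes held 939 CPM and microglia 55.3 CPM (23.9 to 158). Nlgn2, the inhibitory-synapse neuroligin, was highest in oligodendrocyte precursors (95 CPM, 78.6 to 119), and the neuron classes lay close together with medians from 29.4 in CA3 to 41.0 in Adarb2-lineage neurons. Nlgn3 was also highest in oligodendrocyte precursors (92.9 CPM, 74.8 to 126). Among neurons it was highest in dentate granule neurons (37.2 CPM, 32.6 to 41.5), apart from deep-layer neurons (28.0 CPM) below it, and lowest in CA3 (19.2 CPM, 18.3 to 21.8).

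The release genes separated neurons from glia. Syt1 ranged from 3290 CPM in dentate granule neurons (3080 to 3330) to 4770 CPM in upper-layer neurons (4180 to 5400), and medians in the 4 glial classes were 69.3 to 107 CPM. Snap25 ran from 605 CPM in dentate granule to 1120 CPM in upper-layer neurons. Upper-layer, subicular, CA3 and deep-layer neurons formed an upper group for Snap25, apart from Adarb2-lineage neurons at 739 CPM and the classes below. Syn1 varied little among neurons, from 124 CPM in dentate granule (117 to 129) to 180 CPM in upper-layer neurons (137 to 207), and all neighbours among the neuron classes overlapped. Syn2 was highest in CA3 pyramidal neurons (838 CPM, 752 to 897), apart from Adarb2-lineage neurons (673 CPM). Syn2 was also present in 2 glial classes, with 441 CPM in oligodendrocyte precursors (415 to 475) and 306 CPM in astrocytes (215 to 342), against 14.5 CPM in oligodendrocytes and 19.2 CPM in microglia.

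Between matched neuron classes, CA3 stood above dentate granule neurons for most members. The ranges over the 5 libraries were apart for 7 of the 9, with 6 higher in CA3 (Nrxn3, Nlgn1, Syt1, Snap25, Syn1 and Syn2) and Nlgn3 higher in dentate granule neurons, and ranges were apart for 39.7% of all genes compared between these classes. Dentate granule medians were 0.283 of CA3 for Nrxn3, 0.535 for Nlgn1 and 0.602 for Snap25, and 1.94 times CA3 for Nlgn3. Without cluster n4 the Nrxn3 medians were 1490 CPM in dentate granule neurons against 8920 in CA3. Against CA1, 5 members were lower and 2 (Nlgn3 and Syn2) higher in dentate granule neurons, beside 37.8% of all genes with ranges apart. Without cluster n4, Snap25 (604 to 633 CPM against 629 to 734) and Syn2 (558 to 618 against 505 to 559) overlapped CA1. CA1 in turn was below CA3 for 5 members and above it for Nlgn3 (26.5% of all genes apart). Inhibitory neurons were above excitatory neurons for Nrxn2, Nrxn3 and Nlgn2 and below them for Nlgn1, with the other 5 overlapping and 27.8% of all genes apart. Excitatory medians were 0.48 of inhibitory ones for Nrxn3 and 1.29 times for Nlgn1. Slc17a7, a gene of excitatory neurons at 195.9 CPM in the largest dentate cluster, also read 93.91, 70.95 and 81.67 CPM in the inhibitory clusters n14, n19 and n20. Adarb2-lineage neurons were above Lhx6-lineage neurons for Nrxn2, Nrxn3, Nlgn1 and Snap25, beside 27.3% of all genes apart. The Lhx6-lineage clusters held 3.235 to 9.503 CPM of Slc17a7, less than n14 and n19. Nuclei with both Xist and Y-linked UMIs made up 23.9% of n14 and 16.92% of n19, against 0% to 5.19% of the Lhx6-lineage clusters. The part of this signal in the differences was not tested. With 5 libraries of 5 genotypes an exact paired test of 2 classes cannot reach 0.05, so the class comparisons are given as ranges without a p-value.

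Oligodendrocyte precursors held 4 of the 5 adhesion genes above the excitatory level, Nrxn3 below it, and little Syt1. As a percent of the excitatory level in the same library, they held 535% to 589% of Nrxn2, 302% to 407% of Nlgn3, 254% to 332% of Nlgn2, 138% to 153% of Nlgn1 and 77.4% to 90.9% of Nrxn3. Of the release genes they held 71.5% to 86.9% of Syn2, 40.0% to 61.4% of Syn1, 18.4% to 29.7% of Snap25 and 2.31% to 3.3% of Syt1. The share of all genes that precursors held above the excitatory level was not computed, so the 4 of 5 is a description only. The 6 broad excitatory markers read alongside summed to 2.02% to 2.5% of their excitatory level in these nuclei, with 1 to 3 of the 6 at 0 in each library, so Syt1 was near the level of those markers and the other 8 members were not. Microglia, taken as the comparison class for free RNA, held 1.37% to 3.66% of the excitatory Syt1 level, and the same 6 excitatory markers summed there to 2.92% to 11.2% of their excitatory level, with 1 to 4 of the 6 at 0. All members but Syt1 had ranges above microglia, 8 of 9 beside 56.0% of all genes apart between these classes, and with classes set by the highest marker score in each nucleus the count was 4. Microglia held few UMIs, 2 of Nlgn3, 7 of Nlgn2, 8 of Syn1, 15 of Nrxn2 and 21 of Syn2 over the 5 libraries, so these members entered the count through the precursors and the count is a description only. Against oligodendrocytes, 8 of 9 were higher in the precursors (43.9% of all genes apart), and Syt1 overlapped. Oligodendrocytes held 27 UMIs of Nlgn2, 44 of Nlgn3, 55 of Syn2 and 95 of Syn1. These members therefore entered this count through the precursors, and it too is a description only. Over the summed UMIs of the 5 libraries the precursors were 31.5-fold higher for Nrxn3 (95% counting interval 28.7 to 34.5), and 8.07-fold for Nlgn1 (7.79 to 8.36). For Syn2 the ratio was 33.6 (25.6 to 44.9) and for Nlgn2 14.9 (10.0 to 23.0), from 55 and 27 UMIs in all oligodendrocytes. Of the 492 Nrxn3 UMIs in all oligodendrocytes, 238 came from 1 nucleus of the 5xFAD library. The Nrxn3 ratio of medians over the libraries was 49.0, outside the interval above.

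Astrocytes shared part of this pattern. Their Nrxn2 was 215% to 343% of the excitatory level, Nlgn3 58.8% to 286% (with as few as 2 UMIs in a library), Nlgn1 60.9% to 71.1% and Syn2 37.5% to 62.5%. Nrxn3, at 1.16% to 3.48%, Syt1 at 1.37% to 2.61% and Snap25 at 3.01% to 6.0% lay near or below the 3.07% to 6.54% that the summed excitatory markers held here, of which 0 to 3 of the 6 were at 0 in each library. Within a library, Snap25 was above those markers in the neuron MAGL-KO astrocytes (6.0% against 4.46%), and Nrxn3 in the global MAGL-KO ones (3.48% against 3.07%). The first value came from 9 UMIs, 8 of them in 5 nuclei, and the second from 20 UMIs, 12 of them in 1 nucleus. Nrxn2, Nlgn1 and Syn2 had ranges above microglia, which held 15, 65 and 21 UMIs of them over the 5 libraries, so they entered this comparison through the astrocytes. The ratios of the summed UMIs, with 95% counting intervals, were 13.2 (7.81 to 23.9), 46.4 (36.3 to 60.2) and 12.9 (8.31 to 21.2). Nrxn3 and Syt1 overlapped microglia, and the other 4 held too few UMIs in the 2 classes to be compared. The share of all genes apart between these 2 classes was 53.9%.

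Shares of nuclei with a UMI were also read at equal depth. With every nucleus thinned to 1000 UMIs, Nlgn1 had a UMI in 97.7% to 100% of oligodendrocyte precursors and Nrxn3 in 91.0% to 96.5%, against 1.96% to 14.3% and 1.96% to 8.33% of microglia. Syn2 had a UMI in 28.1% to 39.8% of precursors and 20.7% to 31.2% of astrocytes, against at most 2.38% of microglia. Snap25 had one in 12.2% to 18.6% of precursors, against at most 7.14% of microglia. Nrxn2 had one in 27.6% to 46.1% of precursors, against at most 2.52% of microglia. Nlgn2 (4.31% to 13.3% against 0% to 3.92%) and Nlgn3 (4.88% to 10.1% against 0%) were seen in few precursors at this depth. The Syn1 shares overlapped, at 0% to 7.87% of precursors and 0% to 2.38% of microglia. For Syt1 the precursors (4.88% to 15.7%) overlapped the microglia (6.25% to 9.8%) at this depth. Without thinning, Nrxn3 was seen in 98.9% to 100% of precursors, Syt1 in 28.7% to 39.0% and Snap25 in 49.4% to 67.3%, and in microglia Syt1 was seen in 10.7% to 25.6% and Snap25 in 3.53% to 9.62%. Precursors held a median of 4840 to 6387 UMIs per nucleus and microglia 2037 to 2820.5. Nuclei under 1000 UMIs, 5 to 22 per library, were left out of the thinned shares.

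The first comparison between groups asks how 5xFAD differed from the wild type in excitatory neurons, where every member had at least 100 UMIs. A gene was counted as past the threshold when the CPM of the 2 libraries differed by at least 0.32 on the log2 scale, in either direction. Between 5xFAD and the wild type 0 of the 9 members were past it, beside 9.76% of all 15000 genes used. The members' log2 ratios lay between -0.09 and 0.08, with a median of 0.0 against -0.01 for all genes. Nrxn3 stood at 4510 CPM in the wild type and 4760 CPM in 5xFAD, Nlgn1 at 5150 and 5140 CPM, and Syt1 at 4010 and 4040 CPM. Snap25 stood at 790 and 832 CPM, Syn1 at 147 and 144 CPM and Syn2 at 580 and 547 CPM. The remaining members, Nrxn2, Nlgn2 and Nlgn3, stood at 73.5, 30.3 and 26.4 CPM in the wild type and at 71.6, 30.9 and 24.8 CPM in 5xFAD.

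The next 3 comparisons ask what each library labelled MAGL-KO shows against 5xFAD, and all 3 share the single 5xFAD library. In excitatory neurons 0 of the 9 members were past the threshold in each of them, beside 39.9% of genes for the astrocyte, 38.1% for the neuron and 13.9% for the global MAGL-KO library. The median over all genes was itself moved, by 0.22, 0.18 and 0.04 on the log2 scale, and the members' medians were -0.02, -0.04 and 0.01. Relative to that shift the members lay low in the first 2 libraries. Gene length moved with it: genes under 10 kb had medians of 0.46 in the astrocyte and 0.44 in the neuron MAGL-KO library, and genes of 10 to 100 kb 0.2 and 0.16. Genes of 100 to 500 kb had -0.0 and -0.01, and genes of 500 kb or more -0.08 and -0.1. In the global MAGL-KO library these medians were 0.05, 0.04, 0.03 and -0.0. The part of length in the members' ratios was not tested.

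Among the adhesion genes, Nrxn3 and Nlgn1 had ratios at or below 0.01 in the 3 comparisons, and Nrxn2, Nlgn2 and Nlgn3 had ratios above 0. Nrxn3 read 4080, 4640 and 4750 CPM in the 3 libraries labelled MAGL-KO (astrocyte, neuron, global), with log2 ratios of -0.22, -0.04 and 0.0 against 5xFAD. Nlgn1 read 4490, 4550 and 5170 CPM (-0.19, -0.18 and 0.01). Nrxn2, at 71.6 CPM in 5xFAD, read 82.0, 88.6 and 83.6 CPM, with log2 ratios of 0.19 (95% counting interval 0.14 to 0.25), 0.31 (0.25 to 0.37) and 0.22. Nlgn3, at 24.8 CPM in 5xFAD, read 30.6, 30.9 and 28.1 CPM, with 0.31 (0.21 to 0.4), 0.32 (0.22 to 0.42) and 0.18, the ratio of 1.248 in the neuron MAGL-KO library being just inside the threshold. Nlgn2, at 30.9 CPM, read 34.3, 35.8 and 32.8 CPM (0.15, 0.21 and 0.08).

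All 4 release genes lay inside the threshold. Syt1 read 3590, 3560 and 3910 CPM (log2 -0.17, -0.18 and -0.05), Snap25 818, 734 and 811 CPM (-0.02, -0.18 and -0.04), Syn1 131, 132 and 142 CPM (-0.13, -0.12 and -0.01) and Syn2 545, 574 and 577 CPM (-0.01, 0.07 and 0.08). With median-of-ratios size factors, which set the typical gene to no difference, 4 members (Nrxn3, Nlgn1, Syt1 and Syn1) were lower by at least the threshold in the astrocyte MAGL-KO library and 3 (Nlgn1, Syt1 and Snap25) in the neuron MAGL-KO library. The share of all genes past the threshold with size factors was not computed, so these counts are a description only. Summed astrocyte markers in excitatory neurons were 515 to 603 CPM over the 5 libraries, oligodendrocyte markers 165 to 188 CPM, and microglial markers 62.5 and 62.1 CPM in the astrocyte and neuron MAGL-KO libraries against 41.6 to 43.4 CPM in the other 3. Their part in these ratios was not tested.

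**Figure D2:**
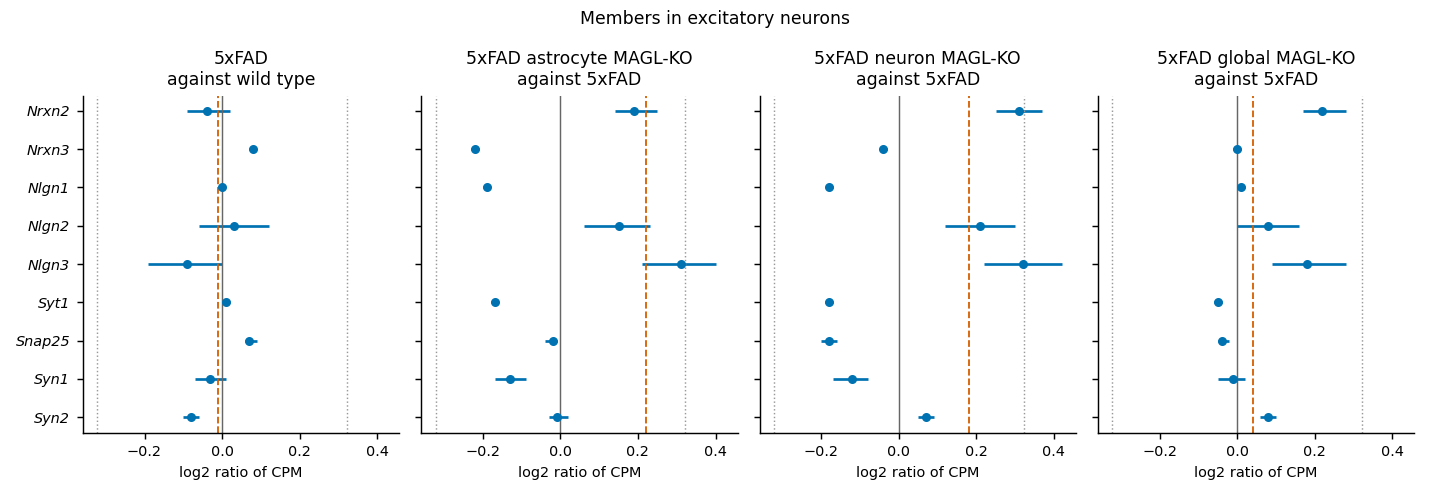
Log2 ratio of CPM for the 9 genes in excitatory neurons, 1 panel per comparison. Bars are 95% counting intervals, dotted lines mark the threshold and the dashed line the median of all genes. All 9 points lie inside the dotted lines in all 4 panels, while the dashed line moves to 0.22 and 0.18 in the astrocyte and neuron MAGL-KO panels.

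Within the excitatory class, Nrxn3 went opposite ways in the subtypes. In dentate granule neurons it stood at 1600 CPM in the wild type, 1280 in 5xFAD, and 2530, 3570 and 3160 in the 3 libraries labelled MAGL-KO (astrocyte, neuron, global). All 3 libraries labelled MAGL-KO were above both others. Against 5xFAD the log2 ratios were 0.98 (95% counting interval 0.96 to 1.0), 1.48 (1.46 to 1.5) and 1.31 (1.29 to 1.33). In CA1 pyramidal neurons Nrxn3 stood at 7080 CPM in 5xFAD and at 5140, 5470 and 5470 CPM in the same 3 libraries, log2 ratios of -0.46, -0.37 and -0.37. In deep-layer neurons it stood at 5030 CPM in 5xFAD and at 3480, 3820 and 3860 CPM (-0.53, -0.4 and -0.38), and in CA3 it was past the threshold only for the astrocyte MAGL-KO library, with 7170 against 9420 CPM (-0.39, and -0.31 over Xist nuclei or with classes set by marker score). Between 5xFAD and the wild type, Nrxn3 in dentate granule neurons had a log2 ratio of -0.32, just inside the threshold. Over Xist nuclei it was -0.43, past the threshold (1230 against 1660 CPM), and over Y nuclei -0.19.

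The dentate difference came mostly with 1 cluster. Dentate granule nuclei fell into 5 clusters, and Nrxn3 stood at 698 to 969 CPM over the libraries in the largest (n0), 894 to 1140 CPM in n6, 2610 to 3470 CPM in n2 and 4430 to 5960 CPM in a small cluster with Bdnf among its leading genes (n31). The fifth (n4), with Plpp4, Pappa and Penk among its leading genes, was placed in the class from 6 raised dentate markers, with 0 of them among its 10 leading genes. It held 9, 10, 365, 296 and 648 nuclei in the wild-type, 5xFAD, astrocyte, neuron and global MAGL-KO libraries, or 0.554%, 0.736%, 21.4%, 25.8% and 31.7% of the class. In the 3 libraries with enough of these nuclei, Nrxn3 there stood at 6560, 9320 and 6920 CPM. Without this cluster the class read 1580, 1240, 1490, 1340 and 1520 CPM, and the log2 ratios against 5xFAD were 0.27, 0.12 and 0.3, none past the threshold. With n0, n2 and n6, which had at least 20 nuclei in every library, weighted equally, the levels were 1820, 1440, 1530, 1620 and 1660 CPM. In both settings 5xFAD was below the wild type past the threshold (1240 against 1580 and 1440 against 1820 CPM).

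In the libraries labelled MAGL-KO nearly all sexed nuclei of this cluster held Xist, while its few nuclei were 8 with Xist and 1 with Y-linked UMIs in the wild type and 2 and 8 in 5xFAD. In the astrocyte MAGL-KO library it held 353 of 1021 dentate granule nuclei with Xist (34.6%) and 6 of 531 with Y-linked UMIs (1.13%). In the neuron MAGL-KO library these were 281 of 887 (31.7%) and 4 of 192 (2.08%), and in the global MAGL-KO library 607 of 1046 (58.0%) and 4 of 711 (0.563%). Over nuclei with Xist alone, Nrxn3 in dentate granule neurons had log2 ratios of 1.44, 1.76 and 1.94 against 5xFAD. Over nuclei with Y-linked UMIs alone they were -0.2, -0.16 and 0.08, so the direction turned in 2 of the 3 libraries. In CA1 both sexes were lower, with -0.54, -0.46 and -0.46 over Xist nuclei and -0.42, -0.33 and -0.29 over Y nuclei, the last from 5630 against 6870 CPM. Since the number of animals is not given, a difference between sexes and a difference between single animals cannot be told apart.

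**Figure D3:**
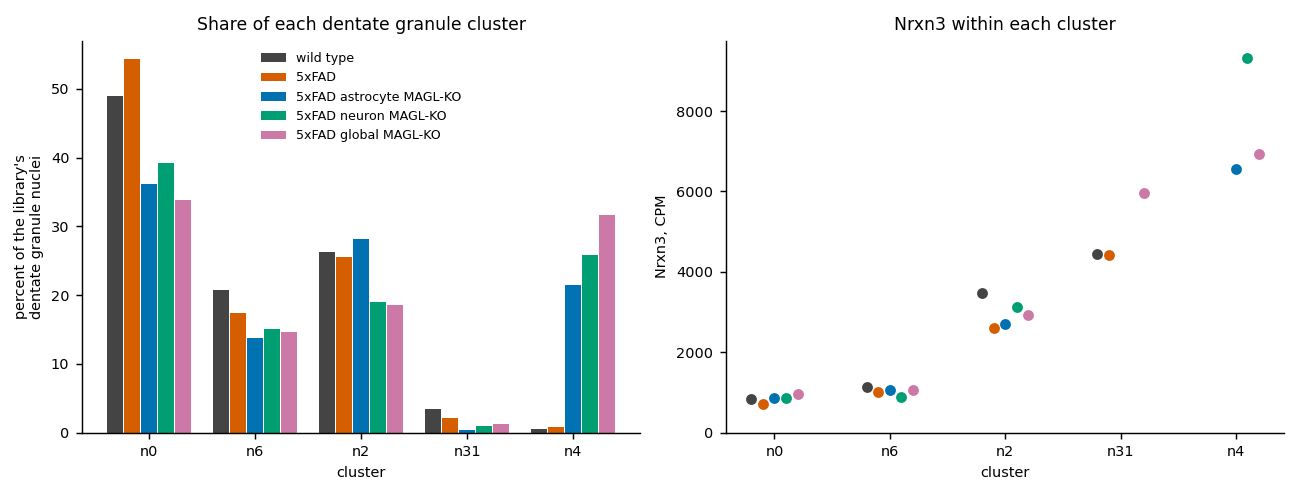
Left, percent of each library's dentate granule nuclei in each of 5 clusters. Right, Nrxn3 level (CPM) within each cluster, 1 point per library with at least 20 nuclei. Cluster n4 holds under 1% of nuclei in the wild-type and 5xFAD libraries and 21.4% to 31.7% in the libraries labelled MAGL-KO, with 6560 to 9320 CPM of Nrxn3.

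**Figure D4:**
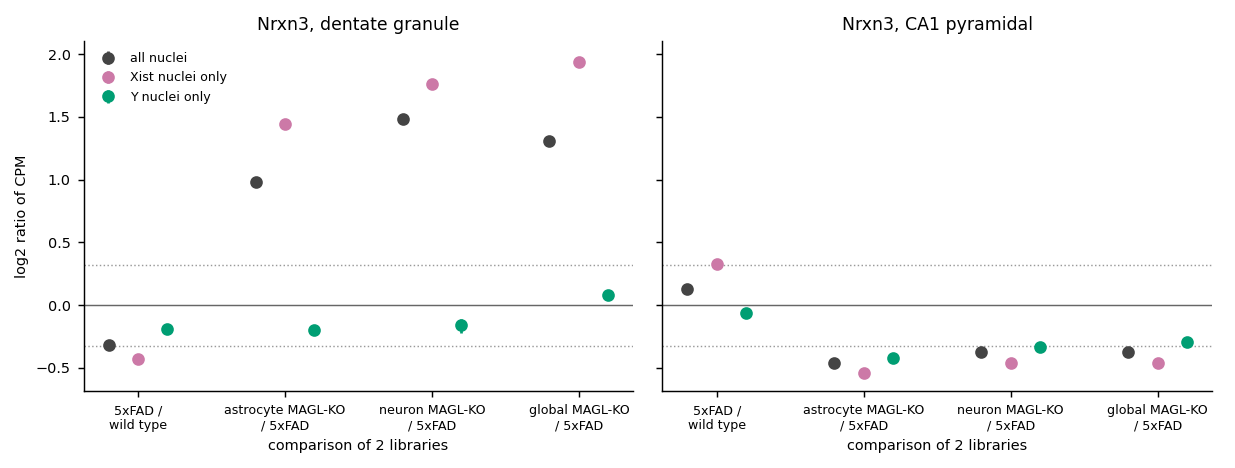
Log2 ratio of Nrxn3 CPM in dentate granule and CA1 pyramidal neurons for the 4 comparisons, over all nuclei, over nuclei with Xist and over nuclei with Y-linked UMIs. Bars are 95% counting intervals, smaller than most points, and dotted lines mark the threshold. In dentate granule neurons the 2 sexes part in the libraries labelled MAGL-KO (1.44 to 1.94 against -0.2 to 0.08), and in CA1 both lie below 0 in those 3 libraries.

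The CA1 class held 2 clusters with unlike Nrxn3 levels, in shares that differed over the libraries. In the larger (n1), Nrxn3 stood at 8660 and 8620 CPM in the wild-type and 5xFAD libraries and at 7240, 7840 and 7690 CPM in the 3 libraries labelled MAGL-KO (astrocyte, neuron, global). In the other (n7) it stood at 3760 and 4090, then 2770, 2950 and 3370 CPM. Against 5xFAD the log2 ratios were -0.25, -0.14 and -0.17 in n1, all inside the threshold, and -0.56, -0.47 and -0.28 in n7. The lower cluster n7 held 39.0% of CA1 nuclei in the wild type and 29.5% in 5xFAD, and 42.0%, 43.5% and 44.1% in the libraries labelled MAGL-KO. With both clusters weighted equally, a setting added after the data were seen, the ratios were -0.34, -0.24 and -0.2, so past the threshold only for the astrocyte MAGL-KO library. Deep-layer neurons also split into 2 clusters, one at 5080 and 5560 CPM and then 3800, 3830 and 3320 CPM, and one at 4540 and 4170 CPM and then 3130, 3810 and 4400 CPM, so in the second cluster the global MAGL-KO library was above 5xFAD. Weighted equally, these 2 clusters gave -0.49, -0.35 and -0.33. With classes set by the highest marker score the CA1 ratios were still lower but -0.29 and -0.3 in the neuron and global MAGL-KO libraries, inside the threshold, and the 3 deep-layer ratios were -0.31, -0.21 and -0.28. Over Y nuclei the deep-layer ratio of the neuron MAGL-KO library was -0.17.

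The other members passed the threshold in few subtypes. In dentate granule neurons 0, 2, 2 and 1 members were past it in the 4 comparisons, beside 8.95%, 35.7%, 33.1% and 17.1% of genes. Apart from Nrxn3 these were Nlgn3 in the astrocyte MAGL-KO library (41.5 against 32.6 CPM, log2 0.35, interval 0.2 to 0.5, and 0.17 with size factors) and Nrxn2 in the neuron MAGL-KO library (83.6 against 60.0 CPM, 0.48). Without cluster n4 the Nrxn2 ratio was 0.25, over Y nuclei 0.26 and with nuclei thinned to 1000 UMIs 0.14. In CA1, 0, 1, 1 and 1 members were past it, each time Nrxn3 (14.0%, 34.5%, 34.6% and 15.7% of genes). In CA3, 0, 1, 1 and 1 were past it (14.6%, 32.7%, 31% and 16.8% of genes), with Nrxn2 at 73.3 and 68.4 CPM in the neuron and global MAGL-KO libraries against 53.3 CPM in 5xFAD (0.46 and 0.36). The first of these was 0.14 over Y nuclei, and the 2 turned to -0.38 and -1.03 when nuclei were thinned to 1000 UMIs. With 173, 104 and 272 CA3 nuclei in the 5xFAD, neuron and global MAGL-KO libraries, few Nrxn2 UMIs were left after thinning. No UMI minimum was applied there, so these 2 turns may be counting error. In subicular neurons 0, 0, 1 and 0 members were past it (14.8%, 30.6%, 27.4% and 15.8% of genes), the 1 being Nrxn2 in the neuron MAGL-KO library (121 against 96.4 CPM, 0.32, just past it). In the upper-layer class 0, 0, 3 and 0 members were past it (20.9%, 32.1%, 34.9% and 19.4% of genes). This class had 45 nuclei in the neuron MAGL-KO library, where Nlgn2 (0.34, interval -0.21 to 0.86), Snap25 (-0.38) and Syn1 (-0.43) passed.

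Deep-layer neurons had 1, 2, 3 and 1 members past the threshold, beside 14.7%, 32.6%, 30.2% and 23.7% of genes. Nlgn3 read 28.0 CPM in the wild type, 22.4 in 5xFAD, and 30.7 and 29.6 in the astrocyte and neuron MAGL-KO libraries, so the low 5xFAD value, from 83 UMIs, enters all 3 ratios (-0.32, just past the threshold, 0.45 and 0.4). With nuclei thinned to 1000 UMIs all 3 turned, to 0.62, -0.06 and -0.56. The class had 205 nuclei in 5xFAD, so few Nlgn3 UMIs were left at this depth, and no UMI minimum was applied. Syt1 was lower in the neuron MAGL-KO library (3770 against 4730 CPM, -0.33). Among inhibitory neurons 0, 1, 0 and 0 members were past it (13.0%, 34.4%, 29.9% and 15.6% of genes), the 1 being Nlgn1 in the astrocyte MAGL-KO library, at 3260 against 4150 CPM (-0.35). That class also holds cluster n20, which has no subtype name and made up 22.2% of inhibitory nuclei in this library and 34.4% in 5xFAD, with 5390 and 5480 CPM of Nlgn1. Without n20 the ratio was -0.32, at the threshold, over Xist nuclei 0.07 and over Y nuclei -0.73. In the Lhx6-lineage class Nlgn1 in that library read 1130 against 1640 CPM (-0.53, interval -0.62 to -0.44), but -0.07 with no doublets removed and -0.19 with classes set by marker score. Also in that class, Nlgn2 was higher in the neuron MAGL-KO library (50.3 against 37.8 CPM, 0.41, interval -0.15 to 0.97) and Syn1 in the global one (178 against 141 CPM, 0.34). The Lhx6-lineage counts were 0, 1, 1 and 1 of 8 members used, beside 17.4%, 25.6%, 25.8% and 19.6% of genes. Adarb2-lineage neurons had 0 of 9 past the threshold in all 4 comparisons (14.7%, 30.8%, 31.2% and 14.6% of genes).

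Glia gave fewer members with the required 100 UMIs. In astrocytes 2 or 3 members were used, and Nlgn1 read 3650 CPM in 5xFAD against 2740 and 2790 CPM in the astrocyte and neuron MAGL-KO libraries (-0.42 and -0.39), from 493 to 876 UMIs. Without the 5 richest nuclei of each library these were -0.53 and -0.32, the second at the threshold. Syn2 read 215 against 342 CPM in the neuron MAGL-KO library (-0.67, interval -1.23 to -0.12). With classes set by the highest marker score all 3 ratios turned, to 0.14, 0.1 and 0.1. Those are 0 of 3, 1 of 2, 2 of 2 and 0 of 2 members, beside 23.0%, 37.4%, 35.3% and 30.6% of genes. In oligodendrocyte precursors 1 of 6, 0 of 6, 3 of 8 and 0 of 6 members were past the threshold (21.3%, 27.6%, 25.4% and 21.4% of genes). Snap25 read 202, 153, 177, 218 and 186 CPM over the 5 libraries, so the 5xFAD value was the lowest. The neuron MAGL-KO library was higher than 5xFAD for Nlgn2 (119 against 78.6 CPM, 0.6, interval 0.04 to 1.17), Nlgn3 (126 against 74.8 CPM, 0.75, 0.19 to 1.33) and Snap25 (0.51, 0.11 to 0.92). Nlgn2 (86 against 41 UMIs) and Nlgn3 (91 against 39 UMIs) reached the required 100 UMIs in this comparison only. They thus entered it through the library where they were high, and the 3 of 8 is a description only. The Nlgn3 ratio was -0.15 over Y nuclei, and the Snap25 ratio 0.12 over Xist nuclei and 0.23 with classes set by marker score.

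In oligodendrocytes 4 members were used, with 2, 4, 4 and 1 past the threshold beside 20.4%, 28.2%, 27.7% and 21.2% of genes. Nrxn3 read 75.3, 288, 64.1, 30.1 and 88.3 CPM over the 5 libraries, a log2 ratio of 1.93 for 5xFAD against the wild type and of -2.17, -3.26 and -1.7 for the astrocyte, neuron and global MAGL-KO libraries against 5xFAD. Of the 297 Nrxn3 UMIs in 5xFAD oligodendrocytes, 238 came from 1 nucleus. Without the 5 nuclei richest in Nrxn3 in each library the first ratio was -0.39 and the others 0.05, -1.08 and 0.65. The direction thus turned in 3 of the 4 comparisons, and the neuron MAGL-KO library alone stayed lower past the threshold, with 21.9 against 46.2 CPM. The 5 richest nuclei held 251 of the 297 UMIs in 5xFAD and 8 of the 28 in the neuron MAGL-KO library. Without them each of the 4 comparisons had under 100 UMIs, so these ratios are a description only. Nrxn2, Nlgn1 and Syt1 made up the other calls, with log2 ratios from -0.57 to 0.49. Microglia had no member with 100 UMIs over 2 libraries.

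The other genes of the release machinery and of synaptic adhesion were followed as 4 lists in excitatory neurons. Of 15 genes of the SNARE and fusion machinery, 0, 2, 5 and 0 were higher and 0 lower by the threshold in the 4 comparisons, with medians of 0.03, 0.22, 0.12 and 0.01. Of 16 active zone genes, 1, 0, 1 and 0 were higher and 0, 1, 1 and 1 lower (medians -0.02, 0.02, -0.05 and 0.05). Of 22 other vesicle proteins, 1, 4, 7 and 2 were higher and 0, 0, 1 and 1 lower (-0.01, 0.19, 0.2 and 0.04). Of the 32 neurexin and neuroligin partners and other adhesion genes, 30, 30, 30 and 31 were used, with 1, 5, 6 and 2 higher and 0, 0, 3 and 1 lower (0.02, 0.04, 0.13 and 0.05). Over all genes 3.29%, 37.3%, 34.0% and 9.81% were higher and 6.47%, 2.65%, 4.04% and 4.1% lower. The medians of active zone genes thus stayed near 0 where that of all genes was 0.22 and 0.18. So did the medians of all genes of 100 to 500 kb (-0.0 and -0.01), and that of the adhesion list in the astrocyte MAGL-KO library (0.04). The part of length in the lists was not tested.

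Single genes of these lists differed more than any member did in the excitatory class. They were picked as the largest ratios among 83 or 84 list genes used, against 9 members. Rims3, Syt2, Rab3a, Nxph3 and Cbln1 also stood below every member in CPM. Rims3, an active zone scaffold, stood at 6.19 CPM in the wild type, 12.1 in 5xFAD, and 8.79, 7.34 and 7.96 in the 3 libraries labelled MAGL-KO (astrocyte, neuron, global). Its log2 ratios were 0.97, -0.47, -0.73 and -0.61, so the 5xFAD library was the highest of the 5. Rims3 is among the leading genes of the upper-layer class, which made up 2.36%, 5.79%, 3.65%, 1.84% and 4.45% of excitatory nuclei in the same order of libraries. Without that class the ratios were 0.75, -0.19, -0.49 and -0.68, and over Y nuclei that of the astrocyte MAGL-KO library was 0.23. Syt2, a fast calcium sensor related to Syt1, stood at 4.8 CPM in the wild type, 8.07 in 5xFAD, and 5.52 and 4.69 in the neuron and global MAGL-KO libraries (log2 0.75, -0.55 and -0.78). Rab3a, a vesicle GTPase, was higher in the astrocyte MAGL-KO library (23.9 against 12.6 CPM, 0.92), as was the neurexin ligand gene Nxph3 (4.6 against 2.59 CPM, 0.82). In the neuron MAGL-KO library the neurexin ligand gene Lrrtm1 (38.2 against 23.7 CPM, 0.69) and the adhesion gene Flrt3 (49.5 against 31.1 CPM, 0.67) were higher and Flrt2 (178 against 240 CPM, -0.43) lower. Without dentate cluster n4 the Flrt2 ratio was -0.31, just inside the threshold. In the global MAGL-KO library the vesicle glycoprotein gene Sv2c, one of the leading genes of n4, read 61.1 against 43.0 CPM (0.51). Without n4 it read 40.3 against 42.3 CPM (-0.07), so this difference was present only with that cluster. Cbln1, a secreted neurexin partner, had -0.33 from 53 and 54 UMIs (interval -0.9 to 0.25), and 0.22 over Xist nuclei.

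Members were compared with other genes by their profile over the 12 classes, as Pearson correlations of median log2 CPM among 6365 genes. These r values describe 12 classes that share libraries. Syt1 was most like Clvs1 (r = 0.994) and the NMDA receptor subunit gene Grin1 (0.988), and Nrxn3 most like the sodium channel gene Scn1a (0.989) and Srrm3 (0.978). Snap25 was most like Hook1 (0.988) and the spectrin gene Sptbn4 (0.986), Syn1 most like Sptbn4 (0.987) and the dynamin gene Dnm1 (0.985), and Syn2 most like Fgf14 (0.985) and Astn1 (0.982). Nrxn2 and Nlgn3 shared their nearest gene, Rimklb (0.947 and 0.959), and Nlgn3 was the next nearest to Nrxn2 (0.905). Nlgn1 was most like Macrod2 (0.953) and Cpt1c (0.949), and Nlgn2 most like Rap1gap (0.957) and Ankmy2 (0.935).

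Chromatin was read as transposase cut sites in the authors' peaks, per 1000000 cut sites in peaks of the same class (cut-site CPM). A peak lay over an annotated start site in all 5 libraries for 8 of the 9 members. For Nlgn2 no peak covered the start, but a peak began 31 to 52 bp upstream of it in all 5 libraries. Long genes had several starts: for Nrxn3 the peaks lay over the starts 230.5 kb and 1089.6 kb into the gene, for Nlgn1 over the one 179.2 kb in, and for Nrxn2 over the first start and the one 79.1 kb in.

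At the 3 release gene promoters that are printed above, accessibility in glia differed. The Syt1 start had 40.4 cut-site CPM in excitatory neurons (37.7 to 42.8 over the libraries), 22.6 in oligodendrocyte precursors (3.89 to 27.3), 0.986 in oligodendrocytes and 0 in microglia, which allows up to 0.959. Astrocytes had 3 cut sites in all at Syt1, a median of 0 with a highest value of 7.62. Snap25 was similar, with 28.0 in excitatory neurons (25.4 to 28.6), 14.7 in precursors (13.6 to 22.6), and 0, 8 and 4 cut sites in all in astrocytes, oligodendrocytes and microglia. The Syn1 start had 23.2 in excitatory neurons (22.8 to 27.9), 56.5 in precursors (38.9 to 62.3), 35.4 in oligodendrocytes (29.4 to 41.3) and 22.8 in astrocytes (14.4 to 39.5), where Syn1 RNA was at a median of 22.3 CPM in oligodendrocytes (10.5 to 32.2, from 95 UMIs in all) and 12.5 CPM in astrocytes (5.55 to 29.4, from 15 UMIs). Syn2 had 30.3 in excitatory neurons, 51.9 in precursors (49.6 to 70.1), 50.3 in astrocytes (39.5 to 76.2), 17.0 in oligodendrocytes and 1.95 in microglia. In precursors both synapsin starts were above the excitatory range and in astrocytes only that of Syn2 was, while the astrocyte range of Syn1 overlapped the excitatory one. The share of all start sites above the excitatory range in these classes was not computed, so this is a description only.

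Among adhesion genes, the first Nrxn2 start had 32.4 in excitatory neurons (30.6 to 34.1), 81.7 in precursors (53.6 to 96.7) and 111 in oligodendrocytes (80.6 to 111), the last beside 72 CPM of Nrxn2 RNA. The Nlgn2 peak just upstream of its start had 55.8 to 66.2 in excitatory neurons, 123 to 164 in precursors and 98.2 to 133 in microglia, where Nlgn2 RNA lay between 0 and 19.2 CPM from 7 UMIs in all. The Nlgn3 start had 5.96 in excitatory neurons and 17.7 in precursors (7.78 to 20.3), and the Nlgn1 start 7.62 and 13.6 (11.3 to 19.5).

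The 2 Nrxn3 starts went opposite ways between dentate granule and CA1 neurons. The upstream one had 2.92 cut-site CPM in dentate granule neurons (2.62 to 3.4) and 8.75 in CA1 (7.17 to 9.1). The downstream one had 25 in dentate granule neurons (23.4 to 27.1) and 11 in CA1 (8.92 to 12.6). At both starts the ranges over the 5 libraries were apart, and the share of all start sites apart between these classes was not computed. In precursors they had 10.9 (3.89 to 21.0) and 13.5 (9.92 to 14.5), and microglia had 0 cut sites at either. In dentate cluster n4 the downstream start had 21.9 to 24.6 over the 3 libraries labelled MAGL-KO. That was inside the 18.3 to 34.5 of clusters n0, n2 and n6, which had at least 20 nuclei in every library. The upstream start had 4.03 to 4.23 in n4, against 1.91 to 3.11 in the largest cluster (n0) and 1.28 to 4.5 in n2 and n6, and all of these rest on 4 to 33 cut sites each. Nrxn3 RNA in the same cluster was 6560 to 9320 CPM against 698 to 969 CPM in the largest one.

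**Figure D5:**
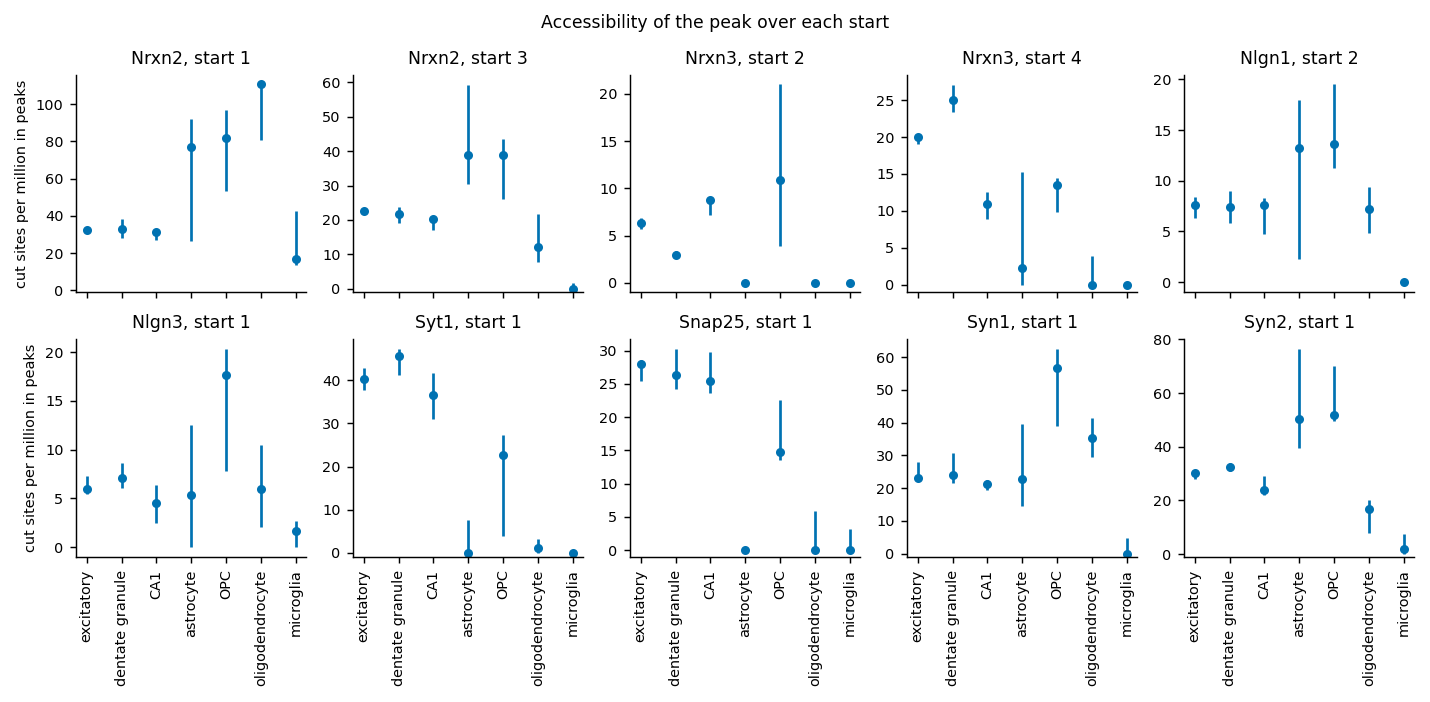
Cut-site CPM of the peaks over 10 start sites of 8 genes, in 7 cell classes. Points are medians and bars the lowest and highest of the 5 libraries, starts are numbered along each gene, and starts 2 and 4 of Nrxn3 are the upstream and downstream ones. Syt1 and Snap25 are near 0 in astrocytes, oligodendrocytes and microglia, Syn1 and Syn2 are near 0 only in microglia, and the 2 Nrxn3 starts rank dentate granule and CA1 neurons in opposite order.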

How the data were processed

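The authors deposited, per library, a matrix of RNA UMI counts per gene and of transposase cut-site counts per peak for the same nuclei. Counts are whole numbers and not normalized, per the file headers and values. Cell Ranger ARC 2.0.0, Seurat and the build mm10 are named in the submitters' processing notes. How introns were counted is not stated there. Peaks were called separately for each library.

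A nucleus was kept if 500 or more genes were detected and mitochondrial UMIs made up no more than 5%. The nuclei with the highest Scrublet scores, 0.8% per 1000 barcodes, were removed as doublets (131 to 449 per library). The other nuclei were clustered with scanpy 1.11.5 and leidenalg 0.10.2 (2000 variable genes, 40 principal components, 15 neighbours, resolution 1), leaving out the 9 genes, the 4 gene lists, Xist, Tsix, Y-linked and mitochondrial genes. Clusters low in Rbfox3 were set apart as non-neuronal and clustered again with 30 principal components. All glial classes and the whole Lhx6-lineage class came from this second round. A class name needed at least 3 raised marker genes, no close second class, no more leading genes of another class and, for non-neuronal or shallow clusters, an own marker among the 10 leading genes. Clusters without a subtype name (15.4% to 34.4% of inhibitory and 16.4% to 21.6% of excitatory nuclei) entered the broad neuron classes only. Levels are summed UMIs per 1000000 UMIs of a class and library (CPM). Ratios carry exact 95% conditional intervals, and genes with at least 100 UMIs over both libraries were used. Intervals and shares cover counting error only, since nuclei of 1 library are not replicates. A nucleus was called Xist or Y from 2 UMIs on. The ratio code was tested on simulated counts. Gene positions came from GENCODE vM21 (GRCm38) and promoters from RefSeq (GRCm38.p6).

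The 9 genes, the 4 gene lists and the 6 motifs were chosen with earlier results of these data known. Named genes of the lists are at most the 3 highest and 3 lowest ratios past the threshold in excitatory neurons, with the 2 genes most like each member among those reaching 50 CPM in a class. Alternatives covered normalization, low-count filter, pseudocount of 5 CPM, a threshold of 1.5-fold, doublets, sex, class assignment, thinning to 1000 UMIs and weighting of nuclei or subclasses. Analysis used Python 3.11.15, numpy 2.4.6, scipy 1.17.1 and pandas 2.3.3.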

Additional observations from a re-analysis of the deposited data

Results flagged for a closer look

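Nrxn3 moved in opposite directions in different excitatory subtypes of the same libraries. Against 5xFAD, the library labelled astrocyte MAGL-KO had log2 ratios of 0.98 in dentate granule, -0.46 in CA1, -0.39 in CA3 and -0.53 in deep-layer neurons. The library labelled neuron MAGL-KO had 1.48 in dentate granule, -0.37 in CA1 and -0.4 in deep-layer neurons, and the one labelled global MAGL-KO had 1.31, -0.37 and -0.38. Within the 2 CA1 clusters the ratios were -0.25, -0.14 and -0.17 (n1) and -0.56, -0.47 and -0.28 (n7), and without cluster n4 the dentate ratios were 0.27, 0.12 and 0.3, none past the threshold. The difference between subtypes was not tested, since each group is 1 library, and all 3 comparisons share the 5xFAD library.

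Nuclei of the 2 sexes also parted. In dentate granule neurons Nrxn3 had 1.44 over Xist nuclei and -0.2 over Y nuclei in the library labelled astrocyte MAGL-KO, and 1.76 and -0.16 in that labelled neuron MAGL-KO. In all excitatory neurons of the latter the ratios were 0.04 and -0.39. In CA1, 5xFAD against the wild type gave 0.33 over Xist nuclei and -0.06 over Y nuclei. The difference between the sexes was not tested.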

How the results depend on the processing

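No paired analysis was possible because no genotype has more than 1 library, so nothing pairs libraries between groups, although classes of 1 library were set side by side. Of the counts and shares that answer a comparison, 73 recomputed values stayed close to the reported one and 18 moved. The count of members past the threshold in excitatory neurons was 0 in all 4 comparisons. For 5xFAD against the wild type it was 1 with nuclei thinned to 1000 UMIs (Nlgn3). For the astrocyte MAGL-KO library it was 4 with size factors (Nrxn3, Nlgn1, Syt1 and Syn1, all lower), and 1 (Nlgn3, higher) without nuclei holding Xist and Y-linked UMIs, over Y nuclei, with a mean over nuclei and with thinning. For the neuron MAGL-KO library it was 3 with size factors (Nlgn1, Syt1 and Snap25, lower), 2 with no doublets removed and with mixed-sex clusters kept (Nrxn2 and Nlgn3, higher; the latter setting was added after seeing the data), 2 over Xist nuclei (Nrxn2 and Nlgn2) and 2 with thinning (Nlgn3 higher, Syn1 lower). It was 1 over Y nuclei (Nrxn3, lower), with marker score, with a mean over nuclei (both Nlgn3) with subclasses weighted equally and without the upper-layer class (both Nrxn2; the last was added after seeing the data). Size factors set the median gene to 0, which lowers all ratios of these 2 libraries, and for the other settings the cause was not tested. The share of all genes past the threshold was not recomputed in these settings, so the counts are a description only. No alternative moved the count for the global MAGL-KO library. Members above microglia in oligodendrocyte precursors went from 8 to 4 with classes set by marker score, and the wild-type share of precursors with Nrxn3 from 99.1% to 93.2%, and the cause was not tested.

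Of 479 alternative values of 44 single member ratios past the threshold, 456 kept their sign and 365 also stayed past it. No UMI minimum was applied to these alternative values, so some rest on few UMIs. The 23 that reversed came under 5 settings. Over Y nuclei they were Nrxn3 in dentate granule neurons (-0.2 and -0.16 in the astrocyte and neuron MAGL-KO libraries), Nrxn3 in oligodendrocytes (1.01 and 0.38, astrocyte and global), Syt1 in oligodendrocytes (0.4 and 0.16, astrocyte and neuron), and Nlgn3 in oligodendrocyte precursors and Nlgn2 in upper-layer neurons of the neuron MAGL-KO library (-0.15 and -0.16). Over Xist nuclei they were Nlgn1 in inhibitory neurons of the astrocyte MAGL-KO library (0.07) and Nlgn3 in deep-layer neurons of 5xFAD (0.06). With thinning they were Nrxn2 in CA3 (-0.38 and -1.03, neuron and global), Nlgn3 in deep-layer neurons (0.62, -0.06 and -0.56 in 5xFAD, astrocyte and neuron) and Nrxn2 in oligodendrocytes (-0.25, neuron). With marker score they were Nlgn1 (0.14 and 0.1, astrocyte and neuron) and Syn2 (0.1, neuron) in astrocytes and Syt1 in 5xFAD oligodendrocytes (0.62). Without the 5 richest nuclei they were Nrxn3 in oligodendrocytes (-0.39, 0.05 and 0.65 in 5xFAD, astrocyte and global). Leaving out richest nuclei, clusters n4 or n20 or the upper-layer class and weighting clusters equally were settings added after seeing the data. Of 246 values for the 19 list gene ratios, 5 reversed: Rims3 over Y nuclei in the astrocyte MAGL-KO library (0.23), and in the global one Sv2c over Y nuclei and without the dentate cluster n4 (-0.15 and -0.07) and Cbln1 over Xist nuclei and as a mean over nuclei (0.22 and 0.24). Depth limits glia most: microglia held 95166 to 251290 UMIs per library and no member could be compared there between groups.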
